A study of Homo sapiens with 6 samples.

Results

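The genes described here are 10 components of NODAL and BMP signalling in TCam-2 cells, an established line from a human seminoma of the testis: the ligands NODAL and BMP4, the antagonists LEFTY1 and LEFTY2, the transcriptional targets ID1, ID2, ID3 and ID4, and the inhibitory SMADs SMAD6 and SMAD7. They were chosen by name from the 62700 genes of the expression table, and all 10 were matched through their Ensembl identifiers. Polyadenylated RNA had been sequenced from 3 groups of 2 libraries each. Non-transduced TCam-2 cells are called WT, cells transduced with GFP_FLAG are called GFP, and cells transduced with RBMXL3_FLAG are called RBMXL3, after a gene related to the RNA-binding protein RBMX. The labels name no ligand or inhibitor of the pathway as a treatment of any group, and all cells were grown with fetal bovine serum. The labels give neither the vector and promoter that drive the transgenes nor whether each line is a clone or a pool, and they do not say that the 2 libraries of a group came from separate cultures, so p-values measure the spread between these libraries, which may be technical.

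NODAL and BMP4 are secreted ligands of the TGF-beta family. NODAL, with a co-receptor such as TDGF1, signals through activin receptors to SMAD2 and SMAD3, which bind DNA with partners such as FOXH1; LEFTY1 and LEFTY2 are secreted inhibitors that NODAL signalling itself switches on. BMP4 signals through BMP receptors to SMAD1, SMAD5 and SMAD9, and the ID genes are among their best known direct targets. ID proteins have a helix-loop-helix domain but no DNA-binding region, and they hold back E proteins such as TCF3 by pairing with them. SMAD6 and SMAD7 are induced by the pathway and dampen it at the receptors. In the germ line, BMP signalling helps to specify primordial germ cells, the cells that seminoma resembles.

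RBMXL3 itself had 0 reads in the 4 control libraries and 84 and 68 reads in the RBMXL3 libraries. Total reads were 28604436 and 29318007 in WT and 23080795 and 26776703 in GFP, compared with 17685680 and 21023355 in RBMXL3, so depth was lowest in the RBMXL3 group. Values below are normalised read counts, that is, reads divided by the authors' size factor for the library, unless TPM (a scale that adjusts for transcript length and for the library total) is named. A count of 0 allows up to 3 reads, or between 2.52 and 3.86 normalised reads by library, for counting error only. In RNA from bulk cells, fewer cells of a type and less RNA per cell cannot be told apart. All 8 seminoma markers were present, including POU5F1, NANOG, SOX17 and TFAP2C, and their summed normalised count lay between 102905 and 118584 in all 6 libraries. Single markers differed within that sum. POU5F1 was at 40115 and 41233 in RBMXL3 and 27460 to 34996 in the controls. KIT (1411 and 1429, controls 1802 to 2578) and NANOG (16054 and 16106, controls 17582 to 20174) lay below all 4 controls. So did PRDM1 (1942 and 1968, controls 2213 to 2713) and PDPN (10508 and 11022, controls 11451 to 14112). SOX17, TFAP2C and ALPL overlapped the controls. Of the 10 genes, 8 passed the minimum for testing (a rescaled value of 1 or more in no fewer than 2 libraries), and LEFTY1 and LEFTY2 did not.

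ID1 was the only one of the 8 tested genes that was called against both controls (a Benjamini-Hochberg adjusted p under 0.05 over all tested genes), with a level 0.719 times that of GFP and 0.796 times that of WT. ID2 and ID4 rose against GFP, BMP4 rose and ID3 fell against WT, and NODAL, SMAD6 and SMAD7 were not called in any comparison. Against GFP, limma called 3 of 8, namely ID2 and ID4 higher and ID1 lower, where the share over all 14292 tested genes was 20.9%, with 10.5% higher and 10.4% lower. Against WT it called 3 of 8, namely BMP4 higher and ID1 and ID3 lower, where the share over all tested genes was 29.9%, with 14.6% higher and 15.3% lower. Against both controls in the same direction it called 1 of 8, where the share over all tested genes was 13.7%, with 6.88% higher and 6.86% lower. The shares over all genes stand beside these counts as a description, and nothing particular to the 10 genes is read from them. Between GFP and WT, limma called 0 of 8 with a background of 3.67%, and BMP4 and ID3 had unadjusted p-values of 0.0321 and 0.0363; edgeR and DESeq2 on the recovered reads also called 0. Without GFP replicate 2, limma called ID3 (-0.30) and ID4 (-0.38) between the controls, both lower in GFP, while calls over all genes rose as well. Counts against GFP and against WT share the RBMXL3 libraries. Without RBMXL3 replicate 1 every call of these genes was lost. Without RBMXL3 replicate 2 only that of ID1 against GFP remained. Calls over all genes fell in both of these fits too. Calls were also lost against GFP without GFP replicate 1 and against WT without either WT library, as given by gene below. When 1 GFP library was left out, the log2 changes against WT stayed the same, such as 0.26 for ID4. The SE of that change fell from 0.12 to 0.08, and calls against WT over all genes rose. Calls gained against WT in those fits are therefore not read as a result about the 8 genes.

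**Figure D1:**
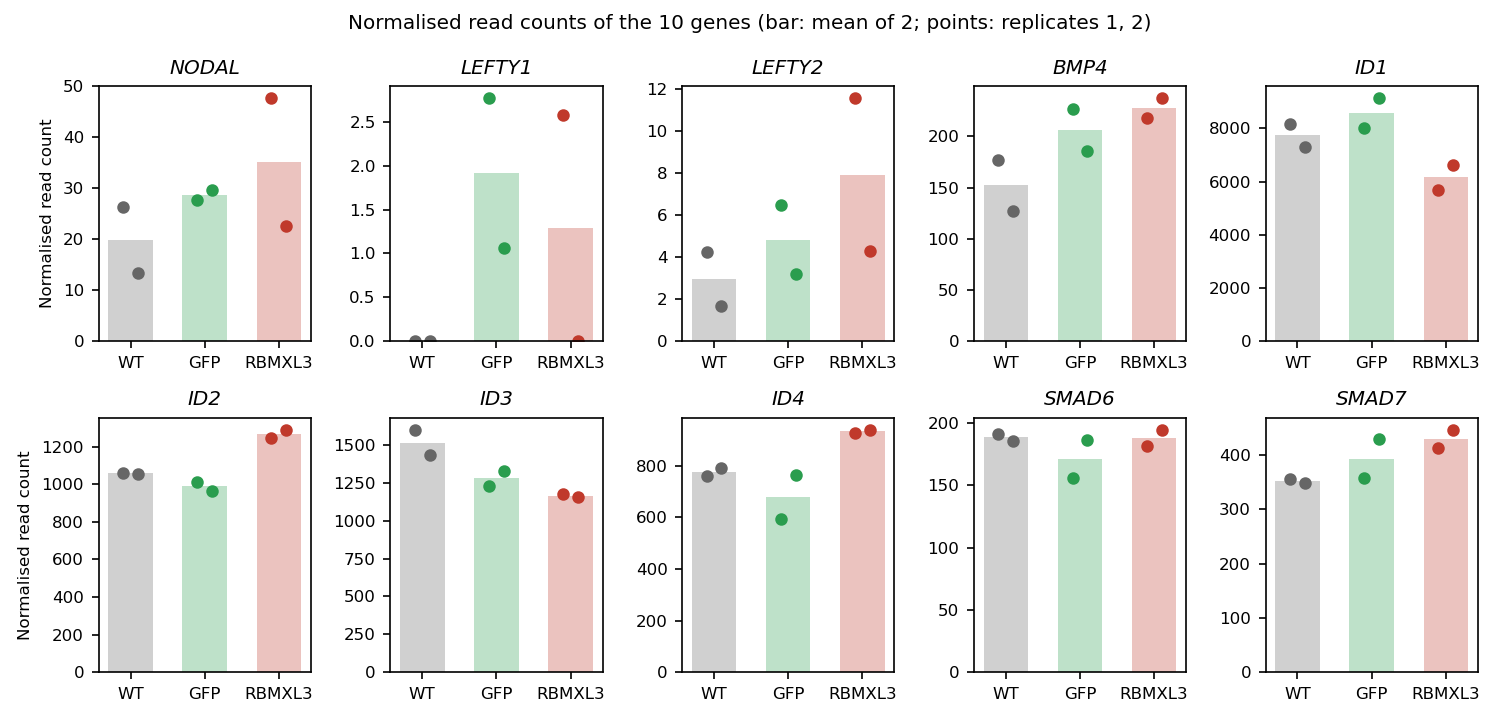
Normalised read counts (vertical axes, starting at 0) of each of the 10 genes in WT, GFP and RBMXL3, with points for the 2 libraries and a bar for their mean. ID1 in both RBMXL3 libraries lies below all 4 controls, ID2 and ID4 lie above them, and LEFTY1 and LEFTY2 never exceed 2.77 and 11.6.

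**Figure D2:**
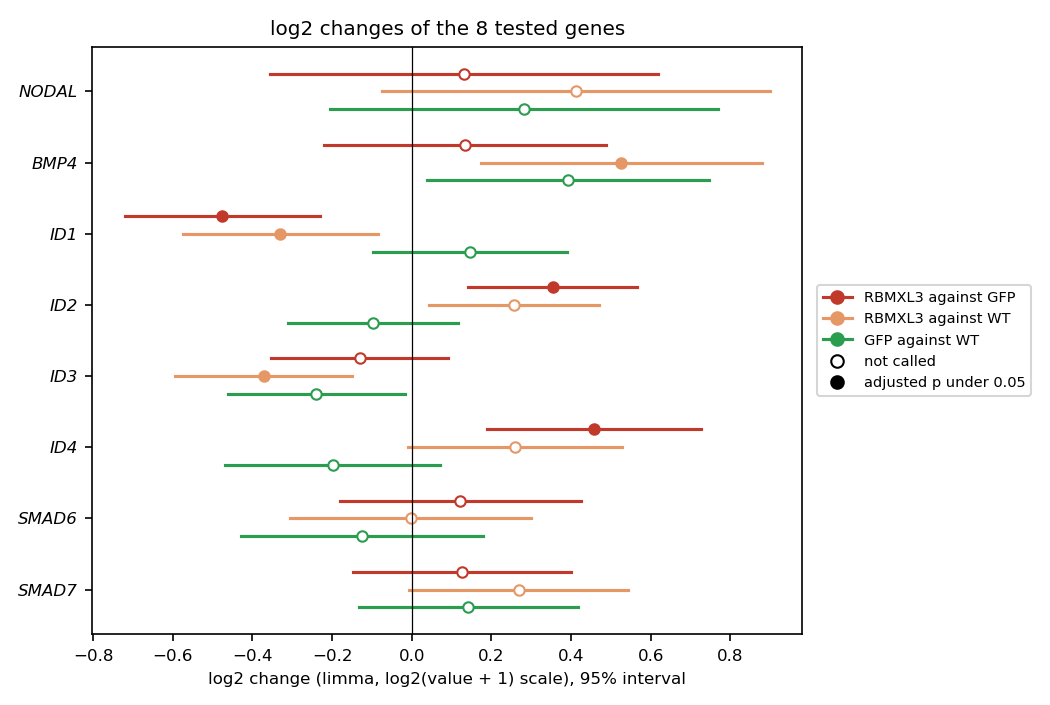
log2 changes of the 8 tested genes (horizontal axis, on the log2(value + 1) scale of limma) with 95% intervals, for each of the 3 pairs of groups; filled points have an adjusted p under 0.05. The intervals of ID1 lie below 0 against both controls, while those of NODAL and SMAD6 span 0 in every comparison.

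Among the ligands, NODAL (ENSG00000156574.10; GRCh38, GENCODE 29, chr10:70432315-70447951, minus strand) had few reads in every library. Its counts were 31 and 16 reads in WT and 30 and 28 in GFP, compared with 37 and 21 in RBMXL3, or 26.2 and 13.4, 27.7 and 29.7, and 47.6 and 22.5 normalised reads. RBMXL3 replicate 1 was the highest library and RBMXL3 replicate 2 was lower than both GFP libraries, so the groups overlapped. The log2 change was 0.13 (95% interval -0.36 to 0.62) against GFP and 0.41 (-0.07 to 0.90) against WT, with limma adjusted p-values of 0.719 and 0.183. Both intervals include 0. An opposite-strand gene of unknown coding status, ENSG00000280401, shares 41.2% of the exon bases of NODAL and had 14.2 to 61.9 normalised reads. Whether counting used strand is not given in the sources used here, so reads in the shared stretch cannot be assigned with certainty.

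LEFTY1 (chr1:225886282-225911382, minus strand) and LEFTY2 (chr1:225936598-225941489, minus strand), the feedback inhibitors of NODAL, were barely detected in any group. LEFTY1 had 0 and 0 reads in the WT libraries, 3 and 1 in the GFP libraries, and 2 and 0 in the RBMXL3 libraries. LEFTY2 had 5 and 2 reads in WT and 7 and 3 in GFP, compared with 9 and 4 in RBMXL3. The LEFTY2 groups overlapped in reads, and neither gene was tested. The main transcripts of this neighbouring pair, LEFTY1-201 and LEFTY2-201, are 96.3% identical over 1202 aligned positions, and 31.3% of the 50-base words of LEFTY1-201 also occur in LEFTY2-201, so their reads may be split between them. The TPM table listed LEFTY1 at 0.220 to 0.363 in RBMXL3, 0.216 to 0.261 in GFP and 0 to 0.0382 in WT, and RBMXL3 replicate 2, with 0 reads in the gene table, was at 0.220 TPM. LEFTY2 was listed at 0.330 and 0.366 TPM in RBMXL3, 0.192 and 0.320 in GFP and 0.0878 and 0.140 in WT. On the TPM scale the 3 LEFTY2 groups did not overlap, and LEFTY1 was lower in WT than in the other groups, while both genes rest on 0 to 9 reads a library in the gene table.

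BMP4 (ENSG00000125378.16; chr14:53949736-53958761, minus strand), a ligand known to induce the ID genes, was expressed several times higher than NODAL per length. Its normalised counts were 177 and 128 in WT and 226 and 185 in GFP, compared with 218 and 237 in RBMXL3. Both RBMXL3 libraries lay above both WT libraries and within or above the range of the GFP libraries. BMP4 rose against WT by 0.53 ± 0.16 log2 units (SE; limma adjusted p = 0.0288). The change against GFP was 0.13 ± 0.16 (95% interval -0.22 to 0.49; limma adjusted p = 0.597), and that of GFP against WT was 0.39 ± 0.16 (limma adjusted p = 0.183). The call against WT was lost without WT replicate 2 (0.32, limma adjusted p = 0.221), without RBMXL3 replicate 1 (0.58, 0.085) or 2 (0.47, 0.176), without a minimum (0.53, 0.132) and under quantile normalization (0.45, 0.068). Summed markers of fibroblasts and stroma moved with the same groups, from 9061 and 10202 in WT to 12655 and 14311 in GFP and 13327 and 14082 in RBMXL3, and 5 of the 6 markers were above 10 in every library while DCN was at most 1.69. A single gene, COL1A2, made most of this sum in every library, with normalised counts between 8093 and 12709. COL1A1, COL3A1, LUM and THY1 were each also lower in both WT libraries than in any GFP or RBMXL3 library. COL3A1 rose again, from 207 and 214 in GFP to 503 and 490 in RBMXL3. LUM did too, from 131 and 179 to 425 and 421. COL1A1 was slightly higher in both RBMXL3 libraries (399 and 407) than in GFP (384 and 335). COL1A2 overlapped between GFP and RBMXL3, and THY1 was lower in RBMXL3 (667 and 597) than in GFP (879 and 687). The part of these markers in the BMP4 difference was not tested.

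ID1 (ENSG00000125968.9; chr20:31605283-31606515, plus strand) was by far the most abundant of the 10 genes. Its normalised counts were 8172 and 7304 in the WT libraries, 8005 and 9141 in the GFP libraries, and 5701 and 6620 in the RBMXL3 libraries. Both RBMXL3 libraries lay below all 4 control libraries, and the 2 control groups overlapped. The log2 change was -0.48 ± 0.11 (SE) against GFP and -0.33 ± 0.11 against WT, with limma adjusted p-values of 0.0121 and 0.0436, and that of GFP against WT was 0.15 ± 0.11 (0.462). The direction against both controls held without each library in turn, between -0.58 and -0.37 against GFP and between -0.44 and -0.22 against WT. The call against GFP was lost without RBMXL3 replicate 1 (-0.37, limma adjusted p = 0.205), without a minimum (0.085) and in TPM (-0.34, 0.12); that against WT was lost without WT replicate 1 (-0.25, 0.269) or 2 (-0.41, 0.0706), without RBMXL3 replicate 1 (-0.22, 0.409) or 2 (-0.44, 0.101), without a minimum (0.154), under quantile normalization (-0.24, 0.12), with edgeR (-0.32, 0.0527) and in TPM (-0.36, 0.0965).

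ID2 (ENSG00000115738.10; chr2:8678845-8684453, plus strand) lay on the other side of the controls in the gene table but not in TPM. Its normalised counts were 1062 and 1054 in WT and 1010 and 965 in GFP, compared with 1248 and 1290 in RBMXL3, so both RBMXL3 libraries were above all 4 controls. The log2 change was 0.35 ± 0.10 (SE) against GFP (limma adjusted p = 0.0239) and 0.26 ± 0.10 against WT (0.0655). The call against GFP was lost without RBMXL3 replicate 1 (0.38, limma adjusted p = 0.174) or 2 (0.33, 0.251), without a minimum (0.055) and in TPM (0.16, 0.411), while the value against WT was called under quantile normalization (0.29, 0.0416) and without GFP replicate 1 (0.26, 0.0149) or 2 (0.26, 0.0148). Its antisense neighbour ID2-AS1, which shares 38 exon bases (1.72%) with it, had 47.6 and 52.4 normalised reads in RBMXL3 and 60.1 to 72.2 in the controls.

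ID3 (ENSG00000117318.9; chr1:23557918-23559794, minus strand) fell against WT and was not called against GFP. Its normalised counts were 1599 and 1429 in WT and 1226 and 1328 in GFP, compared with 1172 and 1155 in RBMXL3. The RBMXL3 libraries were the lowest, the GFP libraries came next and the WT libraries were the highest, without overlap. The log2 change was -0.37 ± 0.10 (SE) against WT (limma adjusted p = 0.0173), -0.13 ± 0.10 against GFP (0.394) and -0.24 ± 0.10 for GFP against WT (0.194), which was called without GFP replicate 2 (-0.30, 0.0492). The call against WT was lost without WT replicate 1 (-0.29, limma adjusted p = 0.151), without RBMXL3 replicate 1 (-0.38, 0.131) or 2 (-0.36, 0.163), without a minimum (0.0522) and in TPM (-0.36, 0.0616).

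ID4 (ENSG00000172201.12; chr6:19837386-19840684, plus strand) rose against GFP in the gene table but not in TPM. Its normalised counts were 760 and 791 in the WT libraries, 591 and 765 in the GFP libraries, and 927 and 939 in the RBMXL3 libraries, and both RBMXL3 libraries were above all 4 controls. The log2 change was 0.46 ± 0.12 (SE) against GFP (limma adjusted p = 0.0219) and 0.26 ± 0.12 against WT (0.133). The single ID4 transcript was listed at 23.4 and 23.5 TPM in WT and 20.3 and 20.4 in GFP, compared with 19.1 and 19.6 in RBMXL3, an order with RBMXL3 lowest. In TPM the log2 change was therefore -0.069 against GFP and -0.26 against WT, with limma adjusted p-values of 0.665 and 0.115. The normalised reads per TPM of ID4 were 48.5 and 47.9 in RBMXL3 and 29.1 to 37.5 in the controls, whereas those of ID1 lay between 12.2 and 14.0 in all 6 libraries. The direction of ID4 thus depends on which of the authors' tables is read, and the cause was not tested. In the gene table the call against GFP was also lost without GFP replicate 1 (0.28, limma adjusted p = 0.0549), without RBMXL3 replicate 1 (0.47, 0.129) or 2 (0.45, 0.161) and without a minimum (0.102), while without GFP replicate 1 or 2 the value against WT was called (0.26; 0.0203 and 0.0216). GFP against WT was -0.20 (limma adjusted p = 0.365) and was called without GFP replicate 2 (-0.38, 0.0219).

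Marker sums of other cell types moved with the RBMXL3 group beside these ID genes. Embryonal carcinoma markers summed to 9829 and 9927 normalised reads in RBMXL3 and 7115 to 8238 in the controls, of which LEFTY1 was at most 2.77 and SOX2 at most 34.2. Trophoblast markers summed to 3838 and 3929 in RBMXL3 and 3298 to 3639 in the controls, and Sertoli and Leydig markers to 179 and 210.0 against 102 to 160.0, with CYP17A1 at 0 in every library and STAR and INSL3 at most 1.07. Single markers weighed heavily in each of these sums. DPPA4 was at 6789 and 7070 in RBMXL3 and 4630 to 5614 in the controls, and AMH at 162 and 187 in RBMXL3 and 93.3 to 147 in the controls. KRT7 made most of the trophoblast sum. GAL, at 186 to 255, and KRT7, at 2158 to 2392, had RBMXL3 libraries within the range of the controls, and HSD3B1 was lower in RBMXL3 (35.3 and 37.3) than in GFP (58.3 and 73.9). Their part in the changes of the ID genes was not tested.

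The promoter windows of ID1 and ID4, which lay on opposite sides of the controls in the gene table, are shown to let their upstream letters be compared. They are RefSeq sequences (GRCh38.p14), 5′ to 3′ on the plus strand, ending before the RefSeq start at chr20:31605039-31605282 for ID1 and chr6:19837120-19837369 for ID4; capitals mark GTCT or its reverse complement AGAC, the core letters bound by SMAD3 and SMAD4.
ID1: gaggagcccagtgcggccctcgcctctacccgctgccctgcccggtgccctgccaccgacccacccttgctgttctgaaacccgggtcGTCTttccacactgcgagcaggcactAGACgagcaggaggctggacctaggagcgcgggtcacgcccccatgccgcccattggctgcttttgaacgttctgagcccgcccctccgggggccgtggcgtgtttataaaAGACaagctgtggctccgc
ID4: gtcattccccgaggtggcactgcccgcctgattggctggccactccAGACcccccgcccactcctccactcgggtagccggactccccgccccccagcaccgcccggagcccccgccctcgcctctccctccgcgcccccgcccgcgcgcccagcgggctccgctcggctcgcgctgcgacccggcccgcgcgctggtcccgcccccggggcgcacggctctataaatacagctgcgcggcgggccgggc
The ID1 window held 3 such matches, 162, 136 and 25 bases before the RefSeq start, and the ID4 window held 1, at 204 bases. The 6 bases of the ID1 window nearest the RefSeq start lie in a GENCODE 29 exon and are not printed. Distances for ID1 count these 6 bases. The letters are common, since 77.5% of 35116 RefSeq promoter windows of 250 bases hold at least 1 match on either strand. The GC-rich motif GGCGCC, which SMAD1 and SMAD5 are known to bind in BMP targets, occurred in none of the 4 ID windows and in 16.4% of all windows. Sequence further upstream than these 250 bases was not searched, so such a motif may lie there. An E-box, CANNTG, the letters bound by E proteins, occurred once in ID4, 21 bases before the start, once in ID2 and not in ID1 or ID3, against 61.8% of all windows. The letters TATAAA occurred in ID1 and ID4, 31 and 29 bases before the start, and in 10.7% of all windows. A match is a description of letters, not of a bound site. The ID2 and ID3 windows overlap transcribed exons of GENCODE 29 over 202 and 250 bases and are not printed. Of the 10 genes, 8 were in the RefSeq promoter table.

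Because the ID genes did not move together, their proportions were compared within each library. The ratio of ID1 to ID2 in normalised reads was 7.70 and 6.93 in WT and 7.93 and 9.47 in GFP, compared with 4.57 and 5.13 in RBMXL3. In TPM it was 8.78 and 7.84 in the WT libraries, 7.65 and 10.6 in the GFP libraries, and 6.07 and 6.65 in the RBMXL3 libraries. Both RBMXL3 libraries had lower ratios than all 4 controls on either scale, a description to which no test was applied. In TPM, ID1 was at 447 and 527 in RBMXL3 and 577 to 654 in the controls, while ID2 overlapped between the groups. The ratio of ID1 to ID3 did not separate the groups in this way, at 5.11 and 5.11 in WT and 6.53 and 6.89 in GFP, compared with 4.87 and 5.73 in RBMXL3 in normalised reads. That of ID1 to ID4 was 6.15 and 7.05 in RBMXL3 and 9.23 to 13.5 in the controls in normalised reads, but 23.4 and 26.9 against 25.5 to 32.1 when taken from TPM, where they overlapped.

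**Figure D3:**
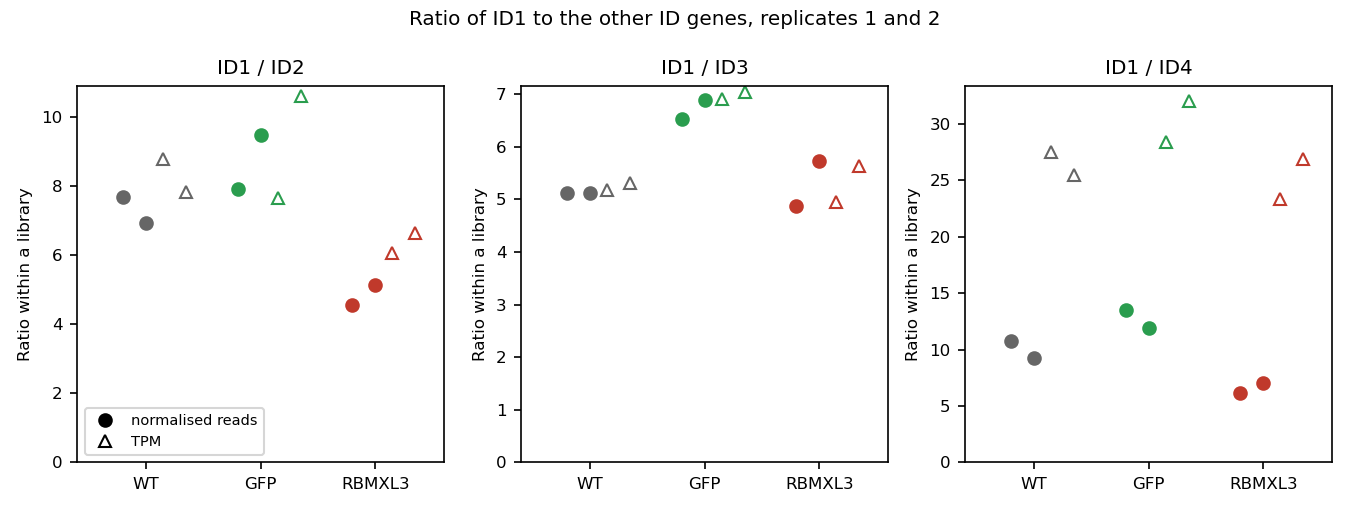
Ratio of ID1 to ID2, ID3 and ID4 within each library (vertical axes, starting at 0), from normalised reads (filled circles) and from TPM (open triangles). The ID1 to ID2 ratio of both RBMXL3 libraries, 4.57 and 5.13 in reads, lies below the controls on both scales, while the ID1 to ID4 ratio overlaps in TPM.

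Per length, the order of the 10 genes was the same in the means of all 3 groups: ID1, ID3, ID2, ID4, SMAD7, BMP4, SMAD6, NODAL, LEFTY2 and LEFTY1. In WT the mean TPM (± SD, n = 2) was 622 ± 31.5 for ID1, 119 ± 8.13 for ID3, 74.9 ± 2.21 for ID2 and 23.4 ± 0.0742 for ID4. It was 8.55 ± 0.241 for SMAD7, 5.45 ± 1.12 for BMP4, 2.74 ± 0.0728 for SMAD6 and 0.613 ± 0.383 for NODAL. Neighbours in this order did not overlap in any group, except LEFTY2 and LEFTY1 in GFP and in RBMXL3. The 4 ID genes together made 865 and 812 TPM in WT and 756 and 829 in GFP, compared with 630 and 720 in RBMXL3, and ID1 made 70.9% to 78.9% of the sum in every library. The share of ID2 in that sum was 11.3% ± 0.476 (SD, n = 2) in RBMXL3 and 7.44% to 9.98% in the controls, and both RBMXL3 libraries were above all 4 of them. The TPM of ID2 itself overlapped between the groups, while that of ID1 was lower in both RBMXL3 libraries than in all 4 controls.

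SMAD6 (ENSG00000137834.15; chr15:66702228-66782848, plus strand) and SMAD7 (ENSG00000101665.10; chr18:48919853-48952052, minus strand), the intracellular inhibitors, were not called in any comparison of all 6 libraries. SMAD6 had 191 and 185 normalised reads in the WT libraries, 156 and 186 in the GFP libraries, and 182 and 195 in the RBMXL3 libraries. SMAD7 had 356 and 348 in WT and 357 and 428 in GFP, compared with 412 and 446 in RBMXL3. On this scale the SMAD6 groups overlapped in every pair, and both SMAD7 libraries of RBMXL3 were above both of WT but not above both of GFP. The log2 change of SMAD6 was 0.12 against GFP (95% interval -0.18 to 0.43; limma adjusted p = 0.572) and -0.0026 against WT (-0.31 to 0.30; 0.991). That of SMAD7 was 0.13 against GFP (-0.15 to 0.40; limma adjusted p = 0.516) and 0.27 against WT (-0.01 to 0.54; 0.127), and the latter was called without GFP replicate 1 (limma adjusted p = 0.0475) or 2 (0.0494). In TPM, SMAD6 was at 3.59 and 3.61 in RBMXL3, 2.95 and 3.01 in GFP and 2.69 and 2.79 in WT, and SMAD7 at 9.92 and 10.6 in RBMXL3, 7.29 and 9.15 in GFP and 8.38 and 8.72 in WT. Both RBMXL3 libraries were above all 4 controls for both genes in TPM. There limma gave log2 changes of 0.21 and 0.30 for SMAD6 against GFP and WT (adjusted p = 0.39 and 0.215) and of 0.30 and 0.24 for SMAD7 (0.213 and 0.29). The median TPM change over all tested genes was itself 0.13 against GFP and 0.03 against WT.

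The transcript table adds which isoform carried each gene, as a description with no test. ID1 has 2 listed transcripts with the same ends: ID1-202, with 2 exons, and ID1-201, a single exon that keeps the bases ID1-202 removes as its intron. ID1-202 was at 607 and 565 TPM in WT and 554 and 625 in GFP, compared with 410 and 487 in RBMXL3. ID1-201 was at 37.0 and 34.2 TPM in the WT libraries, 23.1 and 29.4 in the GFP libraries, and 37.1 and 40.4 in the RBMXL3 libraries. The lower ID1 level of RBMXL3 was thus carried by the spliced form, and the share of the unspliced form was 8.31% and 7.67% in RBMXL3, 4.0% and 4.49% in GFP and 5.75% and 5.70% in WT. Both RBMXL3 libraries were above all 4 controls in this share.

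BMP4 had 8 transcripts above 0 in at least 1 library, and their makeup differed between libraries of a group. BMP4-206 was at 5.14 and 4.19 TPM in WT and 0 and 4.95 in GFP, compared with 0 and 3.14 in RBMXL3. BMP4-205, which starts further downstream, was listed at 0 in both WT libraries, at 2.87 and 0 TPM in GFP, and at 6.07 and 3.25 in RBMXL3. For BMP4-206, the GFP libraries overlapped both other groups, and both RBMXL3 libraries lay below both WT libraries. BMP4-205 was higher in both RBMXL3 libraries than in all 4 controls and overlapped between WT and GFP. In SMAD7, the coding form SMAD7-201 was at 4.24 and 4.53 TPM in WT and 7.08 and 4.60 in GFP, compared with 6.13 and 7.41 in RBMXL3, while SMAD7-202, annotated as a retained intron, was at 3.91 and 3.81, 0 and 4.21, and 3.26 and 2.97. GFP replicate 1 stood apart in SMAD7, as the only library with 0 TPM of the retained-intron form. NODAL-202, 1 of the 2 NODAL transcripts, was listed at 0 in both RBMXL3 libraries and in WT replicate 2, and at 0.286 to 0.706 TPM in the other libraries. A value of 0 for one isoform of such low genes can be a failed assignment of shared reads.

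**Figure D4:**
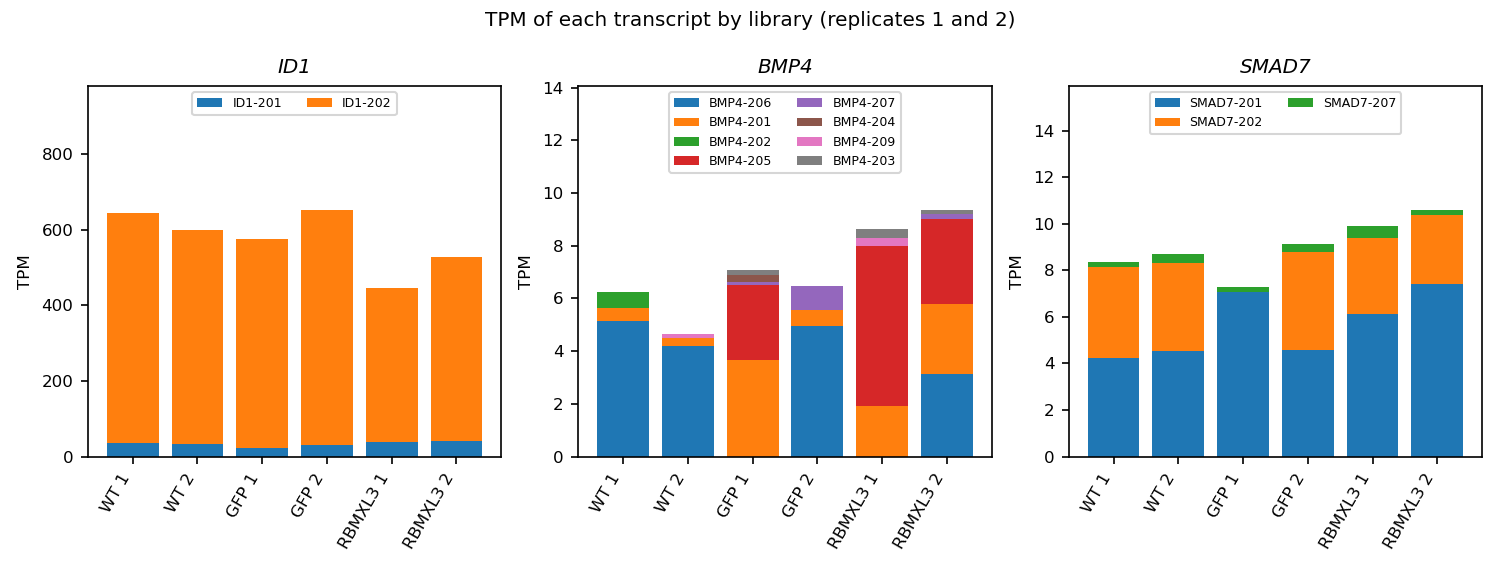
TPM of each listed transcript of ID1, BMP4 and SMAD7 by library (stacked bars from 0, replicates 1 and 2 of each group). ID1-202 makes most of ID1 and is lowest in RBMXL3, while the isoform makeup of BMP4 and SMAD7 differs between the 2 GFP libraries.

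Other genes of the pathway were read from lists of ligands, receptors, SMADs and partners, inhibitors, other targets and partners of the ID proteins. Of the 71 tested, 15 (21.1%) were called against GFP, 12 higher and 3 lower, and 31 (43.7%) against WT, 19 higher and 12 lower, beside 20.9% and 29.9% of all tested genes. Their median log2 change was 0.09 against GFP and 0.0010 against WT, beside 0.00087 and -0.01 over all tested genes. Called in the same direction against both controls were 8 of 71 (11.3%), beside 13.7% of all. Between GFP and WT, 8 were called (11.3%), beside 3.67% of all.

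Of the 10 tested ligands other than the members, 1 was called higher against GFP, and 3 higher and 1 lower against WT. GDF15, a stress-induced member of the family, had 113 and 87.2 normalised reads in the WT libraries, 208 and 273 in the GFP libraries, and 337 and 372 in the RBMXL3 libraries, and limma called it in all 3 comparisons. Between GFP and WT its call was lost with no minimum and in summed TPM, where limma called no gene, and without WT replicate 1. Under the other settings this call was not followed for GDF15. Calls over all genes between the controls fell from 524 to 327 under quantile normalization and to 191 with a replicate block. The call against GFP (0.53, limma adjusted p = 0.0353) was lost without GFP replicate 1 (0.35, 0.144), under quantile normalization (0.48, 0.0543) and without a minimum (0.152). Of the 16 receptors and co-receptors, 3 were higher and 1 lower against GFP, and 4 higher and 4 lower against WT. TGFBR1, the type I receptor for TGF-beta, rose to 1470 and 1566 normalised reads in RBMXL3 from 1166 and 1122 in GFP and 1108 and 1195 in WT. ACVR1, a type I BMP receptor, fell to 1460 and 1459 normalised reads from 2115 and 1831 in GFP and 2026 and 2243 in WT. In TPM, however, ACVR1 was higher in RBMXL3, with log2 changes of 0.38 and 0.24 against GFP and WT (limma adjusted p = 0.256 and 0.443), and those of TGFBR1 were 0.03 and 0.05 (0.926 and 0.889).

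Of the 9 SMADs and partners, 2 were higher against GFP, and 2 higher and 1 lower against WT. FOXH1, the DNA-binding partner of SMAD2 on NODAL targets, had normalised counts of 399 and 391 in WT and 777 and 780 in GFP, compared with 1264 and 1132 in RBMXL3. The 3 groups did not overlap, and FOXH1 was called in each pair, with log2 changes of 0.61 ± 0.11 (SE) for RBMXL3 against GFP, 1.54 ± 0.11 against WT and 0.94 ± 0.11 for GFP against WT (limma adjusted p = 0.0028, 3.1e-06 and 0.0035). The call between GFP and WT was lost with no minimum and in summed TPM, where limma called no gene, and without WT replicate 1. Under the other settings that call was not followed for FOXH1. The call against GFP was lost without RBMXL3 replicate 1 (0.53, limma adjusted p = 0.0691). In normalised reads NODAL, LEFTY1 and LEFTY2 did not separate the groups in this order, and in TPM LEFTY2 did, on at most 9 reads in a library.

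Of the 14 tested inhibitors, 1 was higher and 2 lower against GFP, and 2 were higher and 2 lower against WT. FST, follistatin, which binds activins and some BMPs outside the cell, had normalised counts of 218 and 226 in WT and 151 and 173 in GFP, compared with 83.7 and 74.9 in RBMXL3. It fell, with changes of -0.85 ± 0.14 (SE) against GFP and -1.25 ± 0.14 against WT on the log2 scale (limma adjusted p = 0.00219 and 0.000117), and both calls held without each library in turn and under every other alternative run. CER1, NOG, CHRD and GREM1, other extracellular antagonists, did not pass the minimum.

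Of the 15 other target genes tested, 3 were higher against GFP, and 6 higher and 2 lower against WT. JUNB, an AP-1 subunit induced early by the pathway, rose to 398 and 396 normalised reads in RBMXL3 from 129 and 206 in GFP and 185 and 133 in WT. Its changes on the log2 scale were 1.17 and 1.21, each with an SE of 0.19 (limma adjusted p = 0.00184 and 0.000791). HEY1, a transcription factor shared with NOTCH signalling, was at 60.5 and 71.7 normalised reads in RBMXL3, 39.7 and 29.7 in GFP, and 24.6 and 26.0 in WT, and was called against both. JUNB and HEY1 lay above all 4 controls in both RBMXL3 libraries, on the opposite side from ID1.

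Of the 7 tested partners of the ID proteins and their targets, 2 were higher against GFP, and 2 were higher and 2 lower against WT. TCF3, an E protein that ID proteins bind, was at 4411 and 5011 normalised reads in RBMXL3, 3605 and 3675 in GFP, and 3746 and 3380 in WT, and its log2 changes were 0.37 and 0.40, each with an SE of 0.10 (limma adjusted p = 0.0238 and 0.0116). In TPM these were 0.20 and 0.24 (limma adjusted p = 0.39 and 0.298). Against GFP, the calls of GDF15 (0.59 and 0.46), ACVR1 (-0.43 and -0.42), TGFBR1 (0.44 and 0.36), HEY1 (0.71 and 0.53) and TCF3 (0.46 and 0.28) were each lost without RBMXL3 replicate 1 and without RBMXL3 replicate 2, with the log2 change without each in brackets. Without GFP replicate 2 the call of HEY1 against GFP was lost too (0.50, limma adjusted p = 0.076), as it was with DESeq2 (0.94, 0.0933). With no minimum on low values, ACVR1 (limma adjusted p = 0.0684), TGFBR1 (0.0521), HEY1 (0.127) and TCF3 (0.0919) were not called against GFP. Against WT, the call of TGFBR1 was lost without WT replicate 1 (0.34, limma adjusted p = 0.103) and without RBMXL3 replicate 1 (0.44, 0.0807) or 2 (0.35, 0.174). That of TCF3 was lost without WT replicate 2 (0.33, limma adjusted p = 0.0943), without RBMXL3 replicate 2 (0.31, 0.223) and with no minimum (0.0551), and that of HEY1 in TPM (0.81, 0.112).

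**Figure D5:**
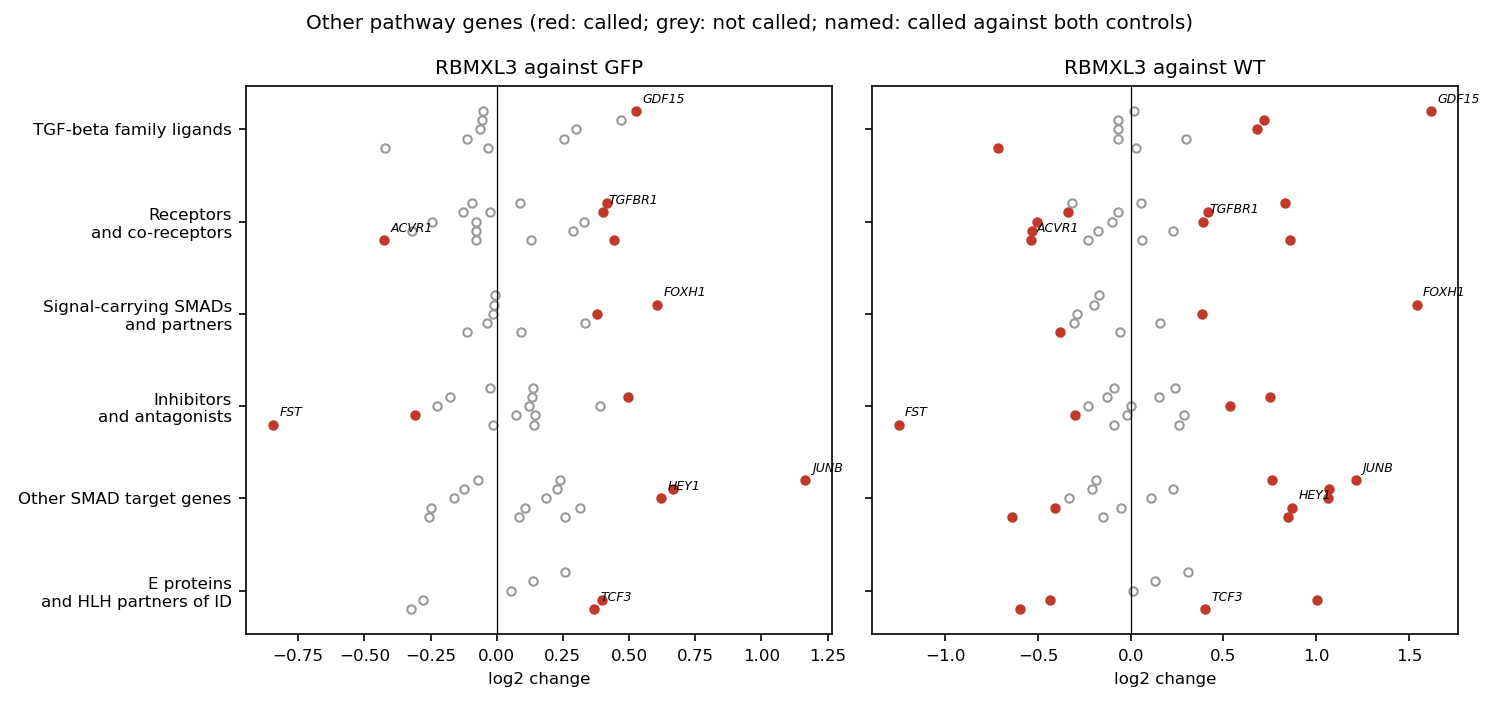
log2 change (horizontal axes) of each other tested gene of the pathway lists, by list, for RBMXL3 against GFP (left) and against WT (right); red points were called, open grey points were not, and named genes were called against both controls. FST is the lowest point and JUNB or GDF15 the highest, while most genes lie within 0.5 of 0.

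The genes whose centred log2 values over the 6 libraries lay nearest to a member were sought among 10737 well-expressed genes, as a description. The nearest to NODAL were BORCS6, CFAP298 and ERG28, at root mean square distances of 0.13, 0.14 and 0.15 log2 units. The nearest to BMP4 were MUC3A, SPATA2L and P3H4, at 0.05, 0.06 and 0.07. The nearest to the mean of the 4 ID genes were CRY1, PNMA1 and CDIN1, at 0.02, 0.02 and 0.03, a mean that hides opposite movements of ID1 and ID2. Nearest to ID1 alone were SLC35B3, MANF and DISP1, at 0.03, 0.04 and 0.05, and nearest to ID2 alone were MEIOC, LRRC41 and CCDC120, at 0.01, 0.02 and 0.02, both sought after the values had been seen. NODAL, which had the fewest reads of these profiles, also had the widest distances.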

How the data were processed

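Polyadenylated RNA of TCam-2 cells was measured in 6 libraries, 2 per group, grouped by their titles. Per the submitters' processing notes, Trim Galore 0.6.10, STAR 2.7.11a, DESeq2 and Salmon 1.10.2 were used with GRCh38; the counting program, its annotation and its use of strand are not given in the sources used here. The gene table deposited by the authors holds a normalised signal: each library's values are whole multiples of one step, so they are read counts divided by a size factor. Of 145320 nonzero values, 100% came out whole within 0.01 of a read. The second deposited table holds TPM per transcript, by salmon per its file name. All table columns matched a sample, with 0 left over.

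The planned test had assumed CPM, so every gene value was first divided by 23.9, the same in all libraries. Genes with at least 1 in at least 2 libraries (14292) were tested as log2(value + 1) with limma 3.58.1 in R 4.3.3, in one fit with an intensity trend, two-sided; calls needed a Benjamini-Hochberg adjusted p below 0.05 over all genes. Such fold changes understate low genes. Alternatives were a pseudocount of 0.1, no minimum, quantile normalization, edgeR 4.0.16 and DESeq2 1.42.0 on recovered reads, summed TPM, a replicate block, robust moderation and leaving out each library. The edgeR fit called 2848 genes against GFP, 4157 against WT and 474 between the controls. Transcripts were assigned by GENCODE 29, which holds 80.0% of them; the others are not in the summed TPM. The scripts were tested on simulated data. Replicates of a group differed beyond sampling noise, with a chi-square per degree of freedom of 11.4 for WT, 28.3 for GFP and 2.64 for RBMXL3.

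The members and the gene lists were chosen with earlier results of these data known. Named were the 10 members, the pathway genes called against both controls in one direction, and the 3 genes nearest in profile to the ID mean, NODAL and BMP4; those nearest to ID1 and ID2 were added after their values were seen.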

Additional observations from a re-analysis of the deposited data

How the results depend on the processing

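Counts of called genes depended on the setting. With no minimum they were 950 against GFP (2986 as reported), 2327 against WT (4271), 673 against both (1964) and 0 for GFP against WT (524). In summed TPM they were 988, 1636, 655 and 0, with 78.8%, 60.6% and 75.6% of calls higher against GFP, WT and both, beside 50.3%, 48.8% and 50.1% as reported, and a median over all genes shifted by 0.13 against GFP. Beside these counts of 0 by limma, 3951 and 2211 genes had an unadjusted p under 0.05, and edgeR and DESeq2 called 474 and 695. For GFP against WT, quantile normalization gave 327. Leaving out 1 library gave 679 to 4304 against GFP, 1428 to 6155 against WT, 445 to 2710 against both and 0 to 2770 for GFP against WT, lowest without an RBMXL3 library, or without WT replicate 1 for the controls, and highest without GFP replicate 2.

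Deviations of same-numbered libraries correlated at -0.156 (WT and GFP), 0.0337 (WT and RBMXL3) and -0.0941 (GFP and RBMXL3). These values cannot tell whether same-numbered libraries were cultured or prepared together. With a replicate block the counts were 2386, 3697, 1566 and, for GFP against WT, 191. ID1 against WT (-0.33, limma adjusted p = 0.0639) and GDF15 against GFP (0.53, 0.0509) were no longer called. No other call of a named gene for RBMXL3 against GFP or WT changed. The calls of GDF15 and FOXH1 between GFP and WT were not followed under the block.

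Signs reversed in TPM for NODAL (-0.038), ID3 (0.062) and ID4 (-0.069) against GFP, for ID4 (-0.26) and SMAD6 (0.30) against WT, for ID1 (-0.016), SMAD6 (0.091) and SMAD7 (-0.059) between the controls, and for ACVR1 (0.38 and 0.24). SMAD6 against WT also reversed with edgeR (0.012) and DESeq2 (0.015), and without single libraries (-0.047 to 0.042), as did NODAL against GFP (-0.18 to 0.44). The cause was not tested. For the 8 tested members, 117 of 144 values without 1 library kept direction and side of the threshold, 16 lost the call, 8 gained it and 3 reversed; of 191 values under the other alternatives these numbers were 166, 14, 1 and 10.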
